A study of Homo sapiens with 12 samples.

Results

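Cytokines, chemokines and their receptors carry signals between cells, and in tumours they shape which leukocytes and vessels a tumour attracts. Their genes were taken by symbol: names of the CXCL, CXCR, CCL, CCR, IL, TNFSF and TNFRSF series with a number, together with TNF, LIF, LIFR, CSF1, CSF2 and CSF3. This gave 182 genes of the 20114 symbols measured. They held 14 CXC and 28 CC chemokines, 16 chemokine receptors, 42 interleukins and antagonists, 42 interleukin receptors and binding proteins, 13 TNF superfamily ligands, 21 TNF receptor superfamily members, 5 LIF and CSF genes with LIFR, and the enzyme gene IL4I1, which the symbol rule also took. All 182 were matched to a RefSeq gene, IL8 under its present symbol CXCL8.

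Libraries of cabozantinib-resistant Caki-1 cells were compared with those of the wild-type Caki-1 cells from which they were derived. Caki-1 is a human line from a renal cell carcinoma, and cabozantinib is an inhibitor of receptor tyrosine kinases, MET and the VEGF receptors among them. The resistant cells were grown in McCoy's 5A medium with 5 µM drug, raised stepwise to 20 µM over 2 months and then kept in 10 µM. The wild-type cells were kept in RPMI medium, with no drug named. Drug, medium and selection therefore differ together between the lines and cannot be told apart. The labels do not say whether the resistant line is 1 clone, whether drug was present at harvest, or whether the replicates are separate cultures. The p-values therefore measure only the spread between these libraries, which may be technical. RNA was sequenced from 2 libraries of each line. Their totals were 14664723 and 12851393 estimated counts in the resistant line, against 10605113 and 10584083 in the wild-type line. The 4 H3K27ac and 4 input libraries of the 12 samples were not analysed here.

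The cells were checked against marker genes. The 10 markers of renal carcinoma and tubule epithelium summed to 2986 and 2890 TPM (an abundance that allows for gene length) in the resistant libraries and to 4217 and 4148 TPM in the wild-type ones. VIM made up most of each sum, with 2390 and 2084 TPM against 3259 and 3225 TPM. Of the other markers PAX8, a transcription factor of renal epithelium, had 133 and 133 TPM against 210.2 and 205 TPM, PAX2 had 0 counts throughout and CA9 at most 14. KRT8 had 229 and 339 TPM against 321 and 308 TPM, and KRT18 had 219 and 312 TPM against 233 and 228 TPM. Neither keratin passed (edgeR adjusted p = 0.903 and 0.52). KRT19 fell (edgeR adjusted p = 0.00543) and CDH16 rose (0.0454) in the resistant line. The 10 leukocyte markers summed to 0.59 and 0.83 TPM in the resistant libraries and to 1.05 and 2.09 TPM in the wild-type libraries, with CD3D, CD3E, MS4A1 and NKG7 at 0 counts throughout. The 4 endothelial markers in the table summed to at most 0.07 TPM in any library. Markers of fibroblasts and pericytes summed to 9.80 and 9.86 TPM in the resistant line and to 25.4 and 27.6 TPM in the wild-type line. Of these 7 genes 4 were tested, DCN and LUM fell (adjusted p = 0.0127 and 0.0499), and COL1A1 and PDGFRB did not pass (0.114 and 0.323). The part of these markers in the results was not tested. In bulk RNA, fewer cells with a transcript and less of it per cell cannot be told apart. The resistant libraries differed from each other far more than the wild-type pair did, with a chi-square statistic per gene of 48.4 against 1.95. Both resistant libraries are therefore given throughout.

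Chemokines are small secreted proteins that guide leukocytes through G-protein-coupled receptors. Several CXC chemokines, among them CXCL1, CXCL2, CXCL3, CXCL5, CXCL6 and CXCL8, act on CXCR1 and CXCR2 and draw neutrophils. CC chemokines such as CCL2 and CCL20 act mainly on monocytes and lymphoid cells. Interleukin-1, TNF family ligands and their receptors signal through NF-kB, a transcription factor that binds kappaB sites in the promoters of many chemokine genes, while IL-6, LIF and other cytokines signal through JAK kinases and STAT proteins.

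The promoters of 6 genes that the results turn on are shown first, from RefSeq on GRCh38.p14. They are 4 that fell in the resistant line (CXCL6, IL32, IL1A and IL1B) and, chosen after their values were seen, CXCL8 and IL6, which differed widely between the resistant libraries. Each window runs from 250 bases before the gene start to 50 bases after it and reads 5′ to 3′ on the gene's strand. Capitals mark matches to a kappaB motif, searched on both strands as GGGNTTTCC or GGANTTTCC, of which only 1 can match at a given position. The windows lie at chr4:73836428-73836727 (plus strand) for CXCL6, chr4:73740319-73740618 (plus) for CXCL8, chr16:3065153-3065452 (plus) for IL32, chr7:22726950-22727249 (plus) for IL6, chr2:112784444-112784743 (minus) for IL1A and chr2:112836730-112837029 (minus) for IL1B. IL32 and IL1A have a second window each, further downstream, that is not shown.
CXCL6: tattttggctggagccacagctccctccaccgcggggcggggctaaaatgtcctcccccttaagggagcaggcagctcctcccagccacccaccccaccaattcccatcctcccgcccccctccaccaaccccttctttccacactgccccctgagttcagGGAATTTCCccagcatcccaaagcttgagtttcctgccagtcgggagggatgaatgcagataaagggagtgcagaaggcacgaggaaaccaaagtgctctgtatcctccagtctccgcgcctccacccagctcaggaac
CXCL8: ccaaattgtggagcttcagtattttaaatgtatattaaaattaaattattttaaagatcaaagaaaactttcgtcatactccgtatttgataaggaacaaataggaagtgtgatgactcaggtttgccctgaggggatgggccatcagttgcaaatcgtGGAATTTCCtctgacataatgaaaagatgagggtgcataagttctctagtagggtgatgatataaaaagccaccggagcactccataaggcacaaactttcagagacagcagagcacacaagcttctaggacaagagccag
IL32: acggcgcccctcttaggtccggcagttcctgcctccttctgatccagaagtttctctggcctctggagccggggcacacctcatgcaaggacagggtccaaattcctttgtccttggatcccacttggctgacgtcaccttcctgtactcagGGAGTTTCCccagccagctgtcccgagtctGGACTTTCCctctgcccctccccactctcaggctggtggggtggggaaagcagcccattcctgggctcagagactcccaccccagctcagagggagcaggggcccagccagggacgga
IL6: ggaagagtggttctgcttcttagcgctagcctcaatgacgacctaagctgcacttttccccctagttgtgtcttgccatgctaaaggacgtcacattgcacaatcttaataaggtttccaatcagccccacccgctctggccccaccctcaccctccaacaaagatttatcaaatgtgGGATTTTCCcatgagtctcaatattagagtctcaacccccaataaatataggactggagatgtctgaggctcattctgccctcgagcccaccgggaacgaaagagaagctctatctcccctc
IL1A: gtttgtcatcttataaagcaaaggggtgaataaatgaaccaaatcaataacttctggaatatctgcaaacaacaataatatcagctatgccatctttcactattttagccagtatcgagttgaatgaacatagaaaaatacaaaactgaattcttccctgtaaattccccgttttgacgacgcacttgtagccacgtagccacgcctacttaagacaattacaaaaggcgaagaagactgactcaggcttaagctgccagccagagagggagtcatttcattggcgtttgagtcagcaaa
IL1B: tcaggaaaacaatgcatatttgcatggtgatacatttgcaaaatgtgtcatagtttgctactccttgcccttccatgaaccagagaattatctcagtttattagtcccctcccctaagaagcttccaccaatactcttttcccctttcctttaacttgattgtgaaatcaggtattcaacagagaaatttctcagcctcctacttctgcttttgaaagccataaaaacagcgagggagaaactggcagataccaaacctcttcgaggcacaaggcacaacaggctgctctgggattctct
A match begins 89 bases before the start of CXCL6, 91 before that of CXCL8 and 72 before that of IL6. IL32 has 2 matches, 98 and 68 bases before the start, and the IL1A and IL1B windows have none. No match says only that these letters are absent from the window.

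Across the 51 tested genes of the set that have a promoter entry, 13 held the kappaB motif, or 25.5%, against 4.24% of all 27305 genes with an entry. All 6 CXC chemokines with an entry held it: CXCL6, CXCL8, CXCL5, CXCL1, CXCL2 and CXCL3. The last 3, which are close paralogs, had 2 matches each, at 77 to 78 and at 53 bases before the start. None of the 8 TNF receptor superfamily genes with an entry held it. The AP-1 motif TGANTCA was in 8 of the 51, or 15.7%, against 9.37% of all genes, and TATAAA in 8, or 15.7%, against 14.0%. These are matches of letters, and binding was not measured.

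**Figure D1:**
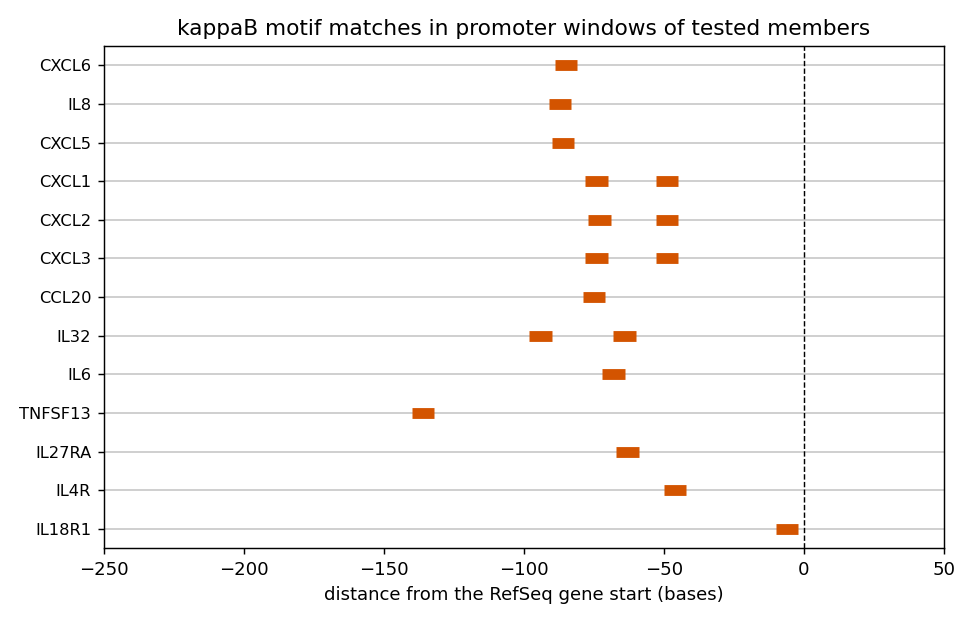
Position of kappaB motif matches (orange bars, 9 bases each) in the promoter windows of the 13 tested genes that hold one, on a horizontal axis of bases from the RefSeq gene start (dashed line); grey lines are the windows searched. In the 6 CXC chemokines at the top the matches lie between 91 and 53 bases before the start.

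Of the 182 genes, 74 had 10 or more counts in at least 2 libraries and were tested, 66 had 0 counts in all 4 libraries, and the other 42 had at most 19 counts in any library. A count of 0 allows a level of up to 0.194 and 0.233 CPM in the resistant libraries and 0.292 and 0.291 CPM in the wild-type libraries, by counting error only. CPM here is the count scaled to a common library size with TMM factors, which adjust for RNA composition. Of the tested genes, 3 passed only through the resistant line (IL22RA1, TNFSF4 and IL17D) and 3 only through the wild-type line (CCL2, CSF3 and IL13RA2), so these had to lean that way. Just inside the filter lay IL34, with 8 and 14 counts in the resistant and 10 and 7 in the wild-type libraries. Just outside lay IL17RE, with 8 and 19 against 5 and 6 counts.

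Among the 74 tested genes, 8 fell and 0 rose in the resistant line by edgeR's quasi-likelihood test, adjusted over all 12892 genes tested by the Benjamini-Hochberg method. Over all genes 3.44% fell and 2.96% rose, or 6.4% in either direction. With an unadjusted p under 0.05, 19 of the set were lower and 7 higher, together 26, where 27% of all genes had such a p. DESeq2 called 9 lower and 0 higher in the set, where it called 5.72% of all genes lower and 4.69% higher. The 8 were CXCL6, CCL2, IL1A, IL1B, IL32, CSF1, CSF3 and TNFRSF10D, which are 7 ligands and 1 receptor. Ligands and antagonists had 7 of 35 lower and a median log2 fold change of -0.75. Receptors and binding proteins had 1 of 38 lower and a median of 0.09, and all genes tested had a median of 0.02. Leaving out the 6 genes that passed the filter through 1 line only, CCL2 and CSF3 among them, 5 of 31 ligands and 1 of 36 receptors were lower, with medians of -0.75 and 0.09. In both resistant libraries 30 of the 74 lay below both wild-type ones, or 22 of the ligands and 8 of the receptors, and 18 lay above. Over all genes tested 29.8% lay below and 30.7% above. The calls depended on the library left out, in the set and over all genes. Without 1 resistant library, the fit takes its spread from the wild-type pair alone, which differed far less than the resistant pair. Without resistant replicate 1, 30 of 68 tested genes of the set fell and 8 rose, where 28.4% of all genes fell and 28% rose. Without resistant replicate 2, 23 of 70 fell and 7 rose, where 20.5% of all genes fell and 17.6% rose. Without wild-type replicate 1, 7 of 67 fell and 0 rose (1.48% and 1.14% of all genes), and without wild-type replicate 2, 6 of 71 fell and 0 rose (1.56% and 1.1%). The genes that fell without a wild-type library were not all among the 8, since CSF2, CXCL2 and IL8 were among them in both fits. Of the 8, IL32 and CCL2 also passed with limma on log2(TPM + 1) without a filter on low values, and the other 6 did not.

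**Figure D2:**
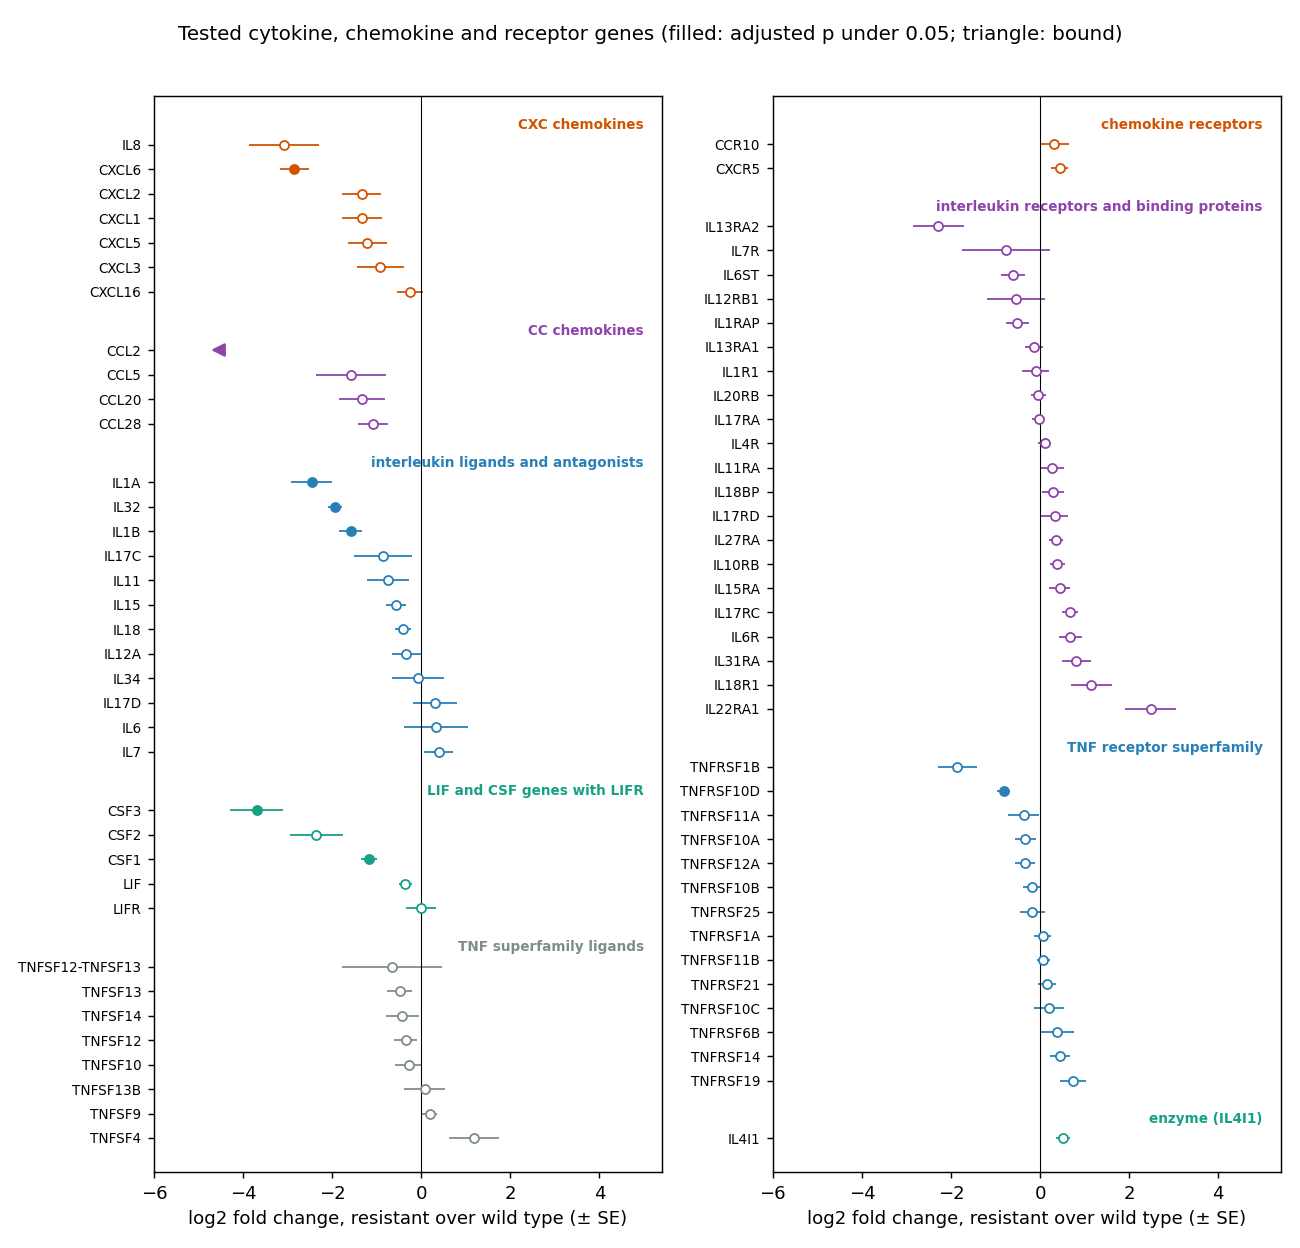
Log2 fold change of the 74 tested genes, resistant over wild type, with bars for ± SE, grouped by role; filled points passed an adjusted p of 0.05 and the triangle marks CCL2 at its bound of 23.4-fold lower. The 7 CXC chemokines all lie left of 0, while interleukin and TNF receptors lie on both sides.

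All 7 CXC chemokines that were tested had lower mean levels in the resistant line, though only CXCL6 passed the test. Summed over the 14 CXC genes, including those with no counts, they took 0.312% and 0.114% of all counts in the resistant libraries, against 0.814% and 0.851% in the wild-type libraries. CXCL6, a neutrophil attractant, had 691 and 362 CPM in resistant cells, against 3720 and 3898 CPM in wild-type cells. Both resistant libraries were far below both wild-type ones, and the mean fell to 527 ± 233 CPM, against 3809 ± 126 CPM in wild type (SD, n = 2 each). The log2 fold change was -2.85 ± 0.32 (SE), with an edgeR adjusted p of 0.0115.

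CXCL8, listed as IL8, is the best known neutrophil chemokine. It had 296 and 47.2 CPM in the resistant libraries, against 1430 and 1472 CPM in the wild-type libraries. The groups did not overlap, but the resistant libraries differed 6.27-fold. Its log2 fold change of -3.08 ± 0.78 (SE) had an edgeR adjusted p of 0.0742. The IL8 call depended on the analysis, as DESeq2 gave an adjusted p of 0.0345. When 1 of the 4 libraries was left out, the log2 fold change ran from -4.92 to -2.29.

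CXCL1 had 1392 and 507 CPM in resistant cells, against 2359 and 2423 CPM in wild-type cells. CXCL2 had 94.4 and 33.8 CPM in the resistant libraries and 161 and 163 CPM in the wild-type libraries. CXCL5 had 474 and 174 CPM, against 726 and 769 CPM in wild type. All 3 were lower in both resistant libraries than in either wild-type library. None passed with edgeR over all 4 libraries with line as the only term (log2 fold changes -1.33, -1.33 and -1.21, adjusted p = 0.125, 0.123 and 0.146). Without resistant replicate 1 the log2 fold changes of CXCL1, CXCL2 and CXCL5 were -2.22, -2.245 and -2.09. Without resistant replicate 2 they were -0.78, -0.78 and -0.66. CXCL3, the least abundant of the neutrophil chemokines tested, had 5.62 and 1.63 CPM in the resistant line and 6.82 and 7.08 CPM in the wild-type line (adjusted p = 0.319). Its log2 fold change was -2.07 without resistant replicate 1 and -0.30 without resistant replicate 2. Reads of CXCL1, CXCL2 and CXCL3 can be split between these similar genes by the authors' counting, so their separate levels are uncertain. CXCL16, a transmembrane chemokine that binds CXCR6, had 4.84 and 7.21 CPM, against 7.31 and 6.98 CPM in wild type, and its groups overlapped (log2 fold change -0.25 ± 0.28, adjusted p = 0.606). Its span overlaps those of MED11 and ZMYND15, so its reads are uncertain.

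The order of the levels differed between the lines on the TPM scale. In resistant cells CXCL1 had the highest mean, from 2315 and 689 TPM, and CXCL6 the next, from 852 and 311 TPM. The range of CXCL6 overlaps those of CXCL1, TNFRSF12A and IL6 there, and in resistant replicate 2 TNFRSF12A lay above CXCL6. IL8 had 286 and 36.7 TPM there. In wild-type cells CXCL6 came first, at 4613 and 4444 TPM, then CXCL1, at 3671 and 3767 TPM, and then IL8, at 1298 and 1320 TPM. These neighbours were separated by more than the spread of the wild-type pair. TNFRSF12A, the receptor for the TNF family ligand TWEAK, had 439 and 554 TPM in resistant cells and 644 and 668 TPM in wild-type cells, and IL6 had 764 and 102 TPM, against 326 and 349 TPM.

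**Figure D3:**
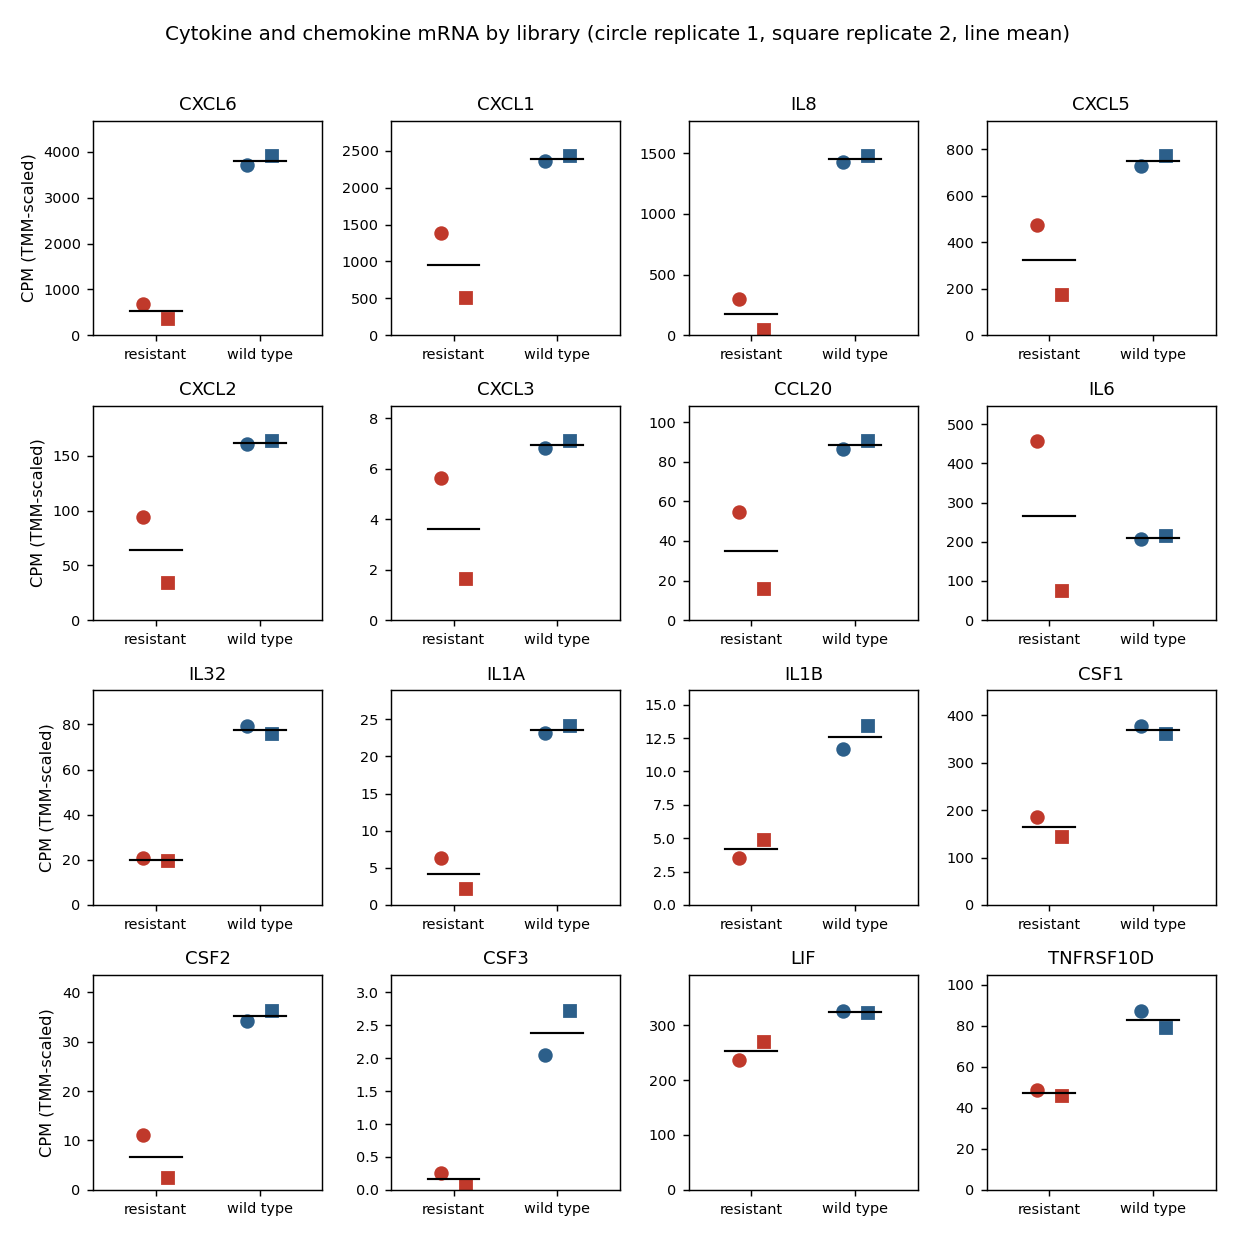
CPM (TMM-scaled) of 16 genes in each library, on linear axes from 0; circles are replicate 1, squares replicate 2 and black lines the mean of each line, resistant left and wild type right. The wild-type points lie close together, while CXCL1, CXCL2, CXCL5, CCL20, IL6 and CSF2 differ widely between the resistant libraries, and the IL6 values lie on either side of the wild type.

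Among CC chemokines 4 of 28 were tested, 1 fell and 0 rose, where 3.44% of all genes fell and 2.96% rose. An unadjusted p under 0.05 was found for 3, where 27% of all genes had one. CCL2, a monocyte attractant, had 0 counts in both resistant libraries, against 32 and 19 counts in the wild-type libraries. It fell in the resistant line, where a floor of 3 counts over the pair puts it at least 23.4-fold lower (edgeR adjusted p = 0.0227). CCL2 passed the filter only through the wild-type line, so it had to lean lower in the resistant line. Without either wild-type library CCL2 had too few counts to be tested. CCL20, the ligand of CCR6, had 54.5 and 15.5 CPM in the resistant libraries, against 86.3 and 90.3 CPM in the wild-type ones. The groups did not overlap, and the log2 fold change of -1.33 ± 0.52 had an adjusted p of 0.171. Without resistant replicate 1 the log2 fold change was -2.49, and without resistant replicate 2 it was -0.69. CCL5 had 12 and 1 counts in the resistant and 13 and 15 counts in the wild-type libraries, and CCL28 had 30 and 23 against 34 and 47 counts. With edgeR neither passed (adjusted p = 0.252 and 0.113).

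Chemokine receptors were almost absent. CXCR1 and CXCR2, through which the neutrophil chemokines act, had 0 counts in all 4 libraries, as did CCR2, the receptor of CCL2, and CCR6, the receptor of CCL20. CXCR4 had 0 counts in both resistant libraries, against 2 and 1 counts in the wild-type libraries. Of 16 receptors 2 were tested and 0 passed with edgeR or DESeq2 or had an unadjusted p under 0.05. CXCR5, known as the follicular B-cell receptor for CXCL13, had 73.3 and 98.8 CPM in the resistant libraries and 61.8 and 65.0 CPM in the wild-type libraries (log2 fold change 0.44 ± 0.19, adjusted p = 0.198). In RefSeq its span overlaps that of BCL9L, which had 220 and 174 CPM against 182 and 179 CPM, so the reads of CXCR5 are uncertain. The B-cell marker MS4A1 had 0 counts in every library. CCR10, a receptor of CCL28, had 3.55 and 5.198 CPM in resistant cells and 3.22 and 3.78 CPM in wild-type cells (adjusted p = 0.568).

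Of 42 interleukins and antagonists, 12 were tested, of which 3 fell and 0 rose, where 3.44% of all genes fell and 2.96% rose. An unadjusted p under 0.05 was found for 4, where 27% of all genes had one. The median log2 fold change of the 12 was -0.49. IL32, an inflammatory cytokine of epithelial and lymphoid cells, had 20.8 and 19.4 CPM in the resistant libraries, against 79.2 and 75.6 CPM in the wild-type libraries. The resistant libraries were close to each other and well below both wild-type ones. IL32 fell to 20.1 ± 0.99 CPM in resistant cells, against 77.4 ± 2.61 CPM in wild type (SD, n = 2 each), a log2 fold change of -1.94 ± 0.15 (SE) and an edgeR adjusted p of 0.00414. It was the only gene of the set that also passed a threshold of 0.01.

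The interleukin-1 ligands IL1A and IL1B, which share the receptor IL1R1, fell as well. IL1A had 6.33 and 2.10 CPM in the resistant libraries, against 23.1 and 24.1 CPM in the wild-type ones (log2 fold change -2.46 ± 0.46, edgeR adjusted p = 0.0359; 0.0698 with limma on log2(TPM + 0.1)). IL1B had 3.49 and 4.89 CPM, against 11.7 and 13.4 CPM in wild type (log2 fold change -1.59 ± 0.27, adjusted p = 0.0286). In neither gene did the lines overlap, and IL1A was lower in resistant replicate 2 while IL1B was lower in resistant replicate 1. The call of IL1B ended without wild-type replicate 2 (adjusted p = 0.0886). IL1R1 itself had 54.4 and 28.7 CPM in resistant cells, against 44.5 and 44.4 CPM in wild-type cells, and IL1RAP, its co-receptor, 10.8 and 7.14 CPM against 13.2 and 12.4 CPM. Neither passed (adjusted p = 0.858 and 0.271), and IL1RN, the receptor antagonist, had 0 counts in all libraries.

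IL6, a cytokine of inflammation and acute-phase responses, went in opposite directions in the 2 resistant libraries. It had 456 CPM in resistant replicate 1 and 73.6 CPM in resistant replicate 2, against 206 and 215 CPM in the wild-type libraries. The resistant values thus lay above and below the wild-type pair, and the log2 fold change of 0.33 ± 0.72 had an edgeR adjusted p of 0.796. Without resistant replicate 1 the log2 fold change of IL6 was -1.50, and without resistant replicate 2 it was 1.12. IL6R, its ligand-binding receptor, had 27.97 and 17.6 CPM in resistant cells, against 14.72 and 13.8 CPM in wild-type cells (log2 fold change 0.68 ± 0.26, adjusted p = 0.162). IL6ST, the shared signalling subunit gp130, had 108 and 62.2 CPM, against 123 and 134 CPM (log2 fold change -0.60 ± 0.27, adjusted p = 0.211).

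IL18, an IL-1 family cytokine of epithelia, had 111 and 148 CPM in the resistant libraries and 169.9 and 175 CPM in the wild-type libraries (log2 fold change -0.42 ± 0.18, adjusted p = 0.198). Its soluble inhibitor IL18BP had 32.7 and 52.4 CPM, against 37.1 and 32.6 CPM, and the groups overlapped; its span overlaps that of NUMA1. IL18R1, a subunit of the IL-18 receptor, had 3.29 and 1.86 CPM in resistant cells and 1.36 and 0.97 CPM in wild-type cells (log2 fold change 1.15 ± 0.46, adjusted p = 0.179). The other interleukins tested, IL11, IL12A, IL15, IL17C, IL17D, IL34 and IL7, had log2 fold changes from -0.86 (IL17C) to 0.39 (IL7), and none passed.

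Of the colony-stimulating factors, which drive growth of myeloid cells, CSF1 and CSF3 fell. CSF1, the macrophage growth factor, had 185 and 143 CPM in resistant cells, against 377 and 361 CPM in wild-type cells. It fell to 164 ± 29.5 CPM, against 369 ± 10.9 CPM in wild type (SD, n = 2 each), a log2 fold change of -1.17 ± 0.17 (SE) and an edgeR adjusted p of 0.0211. The call ended without wild-type replicate 1 (adjusted p = 0.0926) and without wild-type replicate 2 (0.0664). CSF3, the neutrophil growth factor G-CSF, had 4 and 1 counts in the resistant libraries, against 21 and 28 counts in the wild-type ones. That is a wild-type to resistant ratio of 13.5 with a 95% counting interval of 5.42 to 43.5 (exact binomial), and CSF3 passed with an adjusted p of 0.0251. CSF3 passed the filter only through the wild-type line, so it had to lean lower in the resistant line. It was not tested without either wild-type library.

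CSF2, or GM-CSF, had 11.2 and 2.33 CPM in the resistant libraries and 34.1 and 36.2 CPM in the wild-type libraries. The lines did not overlap, and the log2 fold change of -2.36 ± 0.60 had an adjusted p of 0.0742. When 1 of the 4 libraries was left out, the log2 fold change of CSF2 ran from -3.90 to -1.65. LIF, a cytokine of the IL-6 family, had 237 and 270.2 CPM in resistant cells, against 326 and 322 CPM in wild-type cells (log2 fold change -0.35 ± 0.14, adjusted p = 0.183). Over the alternative analyses the log2 fold change of LIF ran from -0.47 to -0.25. Its receptor LIFR had 13.4 and 7.45 CPM, against 9.07 and 11.9 CPM, with overlapping groups (log2 fold change -0.01 ± 0.33, adjusted p = 0.992). CSF1R, the receptor of CSF1, had at most 6 counts in any library.

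Interleukin receptors and binding proteins had 21 of 42 members tested, of which 0 passed with edgeR or DESeq2. An unadjusted p under 0.05 was found for 5 that were higher and 1 that was lower, where 27% of all genes had such a p. IL22RA1, among the higher ones, and IL13RA2, the lower one, passed the filter only through the line where they were high. Their median log2 fold change was 0.26. IL22RA1, the specific subunit of the IL-22 receptor on epithelia, had 20 and 27 counts in the resistant libraries, against 3 and 3 counts in the wild-type ones. Its resistant to wild-type ratio was 5.68, with a 95% counting interval of 2.42 to 16.3, and its adjusted p of 0.0588 missed the threshold. IL22RA1 was called higher when library totals replaced the TMM factors. IL17RC, a subunit of the IL-17 receptor, had 60.9 and 79.0 CPM in resistant cells, against 46.7 and 40.9 CPM in wild-type cells (log2 fold change 0.67 ± 0.19, adjusted p = 0.0902). Both resistant libraries were above both wild-type ones. IL31RA, the IL-31 receptor, had 16.9 and 9.23 CPM, against 7.60 and 7.28 CPM (log2 fold change 0.81 ± 0.33, adjusted p = 0.181).

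In the other direction IL13RA2, a decoy receptor for IL-13, had 3 and 3 counts in the resistant and 12 and 10 counts in the wild-type libraries (log2 fold change -2.28 ± 0.57, adjusted p = 0.0732). Its signalling counterpart IL13RA1 had 88.4 and 61.9 CPM, against 81.5 and 83.9 CPM, and overlapped between the lines (log2 fold change -0.14 ± 0.20). IL4R, IL17RA and IL20RB had log2 fold changes of 0.10, -0.03 and -0.04 with SEs of 0.15, 0.15 and 0.17. IL4I1, an amino acid oxidase and no cytokine, had 32.5 and 35.4 CPM in resistant cells and 24.0 and 23.7 CPM in wild-type cells (log2 fold change 0.51 ± 0.16, adjusted p = 0.111), and its span overlaps those of NUP62 and ATF5.

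Of 21 TNF receptor superfamily genes 14 were tested, 1 fell and 0 rose, where 3.44% of all genes fell and 2.96% rose. An unadjusted p under 0.05 was found for 3, where 27% of all genes had one. The median log2 fold change of the 14 was -0.06. TNFRSF10D, a decoy receptor for the death ligand TRAIL, had 48.4 and 45.5 CPM in the resistant libraries, against 87.2 and 78.7 CPM in the wild-type libraries. It fell to 47.0 ± 2.06 CPM in resistant cells, against 82.9 ± 5.997 CPM in wild type (SD, n = 2 each; log2 fold change -0.82 ± 0.15 (SE), edgeR adjusted p = 0.0346). Without wild-type replicate 1 or 2 the call ended (adjusted p = 0.479 and 0.286), as it did with limma on log2(TPM + 1) (0.0769). The death-domain TRAIL receptors did not pass: TNFRSF10A had 15.9 and 10.8 CPM against 17.0 and 16.7 CPM (adjusted p = 0.418), and TNFRSF10B had 306 and 211 CPM against 288 and 294 CPM (0.624). The span of TNFRSF10B overlaps that of RHOBTB2. TRAIL itself, TNFSF10, had 8.46 and 14.1 CPM in resistant cells, against 15.01 and 12.4 CPM in wild-type cells (log2 fold change -0.29 ± 0.29).

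The TNF receptors differed from each other in level. TNFRSF1A, the broadly expressed receptor, had 160 and 217 CPM in resistant cells and 185 and 178 CPM in wild-type cells (log2 fold change 0.06 ± 0.18). TNFRSF1B, more typical of leukocytes, had 11 and 6 counts, against 24 and 21 counts in wild type (log2 fold change -1.86 ± 0.44, adjusted p = 0.063). TNF itself had at most 3 counts in any library. TNFRSF12A, a receptor of injured epithelium, had 243 and 374 CPM in the resistant line and 381 and 395 CPM in the wild-type line (log2 fold change -0.33 ± 0.22, adjusted p = 0.389). TNFRSF11B, the decoy receptor osteoprotegerin, had 97.7 and 87.2 CPM, against 90.8 and 84.9 CPM.

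TNF superfamily ligands had 8 of 13 members tested, and 0 passed with edgeR or DESeq2 or had an unadjusted p under 0.05. TNFSF9, the ligand of 4-1BB, was the most abundant, at 59.6 and 50.8 CPM in resistant cells and 52.0 and 45.0 CPM in wild-type cells (log2 fold change 0.19 ± 0.17). TNFSF14, known as LIGHT, had 21.4 and 9.70 CPM, against 20.5 and 21.3 CPM (log2 fold change -0.42 ± 0.36). TNFSF12, TNFSF13 and the read-through TNFSF12-TNFSF13 overlap, so their separate counts are uncertain. Their log2 fold changes ran from -0.65 to -0.35, and none passed.

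The resistant libraries were set beside each other gene by gene, on a log2 CPM scale with a prior count of 2. Of the 74 tested genes 14 were lower in replicate 2 than in replicate 1 by 2-fold or more and 0 were higher by that much, while over all genes tested 3.6% were lower and 1.85% higher. The 14 comprised 12 ligands and 2 receptors. CXCL1, CXCL2, CXCL5 and CXCL3 were lower by similar amounts, with log2 differences of -1.46, -1.48, -1.45 and -1.69. CXCL8 and IL6 were further apart, at -2.64 and -2.63, and CCL20 and CSF2 stood at -1.80 and -2.19. The read-through TNFSF12-TNFSF13, with 18 and 0 counts, had the largest of these differences, at -3.02. IL32, CSF1, IL1B and LIF differed by -0.10, -0.37, 0.47 and 0.19. These are differences between single libraries and carry no test. Against the wild-type mean, 10 genes of the set were lower by 2-fold or more in resistant replicate 1, where 4.72% of all genes were, and 26 in resistant replicate 2, where 7.9% were. Higher by 2-fold or more were 5 and 2 genes of the set, against 4.58% and 6.22% of all genes. The wild-type libraries were 2-fold or more apart in 3 of the 74.

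Which genes passed therefore depended on the resistant library used. Of the 67 genes of the set tested in both fits, 19 were called lower both without resistant replicate 1 and without resistant replicate 2, where 14.1% of all genes were: the 8 above, CXCL1, CXCL2, CXCL5, IL8, CCL20, CSF2, LIF, IL18, IL13RA2, IL6ST and TNFRSF1B. IL17RC and IL4I1, 2 genes, were called higher in both of these fits, where 11.5% of all genes were. Calls in opposite directions came from IL6 and IL1R1, lower without replicate 1 and higher without replicate 2, and from TNFRSF1A, higher without replicate 1 and lower without replicate 2. CCL5, CCL28, CXCL3, IL15, IL1RAP, IL13RA1, TNFRSF10A, TNFRSF10B and TNFSF14 were called lower, and CXCR5, IL10RB, IL18BP, IL27RA and TNFRSF10C higher, in only the fit without replicate 1, of these 2 fits. IL6R, IL18R1 and IL31RA were called higher, and TNFRSF12A, TNFSF10 and TNFSF13 lower, in only the fit without replicate 2. In these fits the lone library is assumed to vary like the wild-type pair. The resistant pair differed far more than that (chi-square statistic per gene 48.4 against 1.95). The 2 fits share the wild-type libraries and are not independent. CCL2, CSF3 and IL13RA2 passed the filter only through those libraries, so they had to lean lower in both fits.

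**Figure D4:**
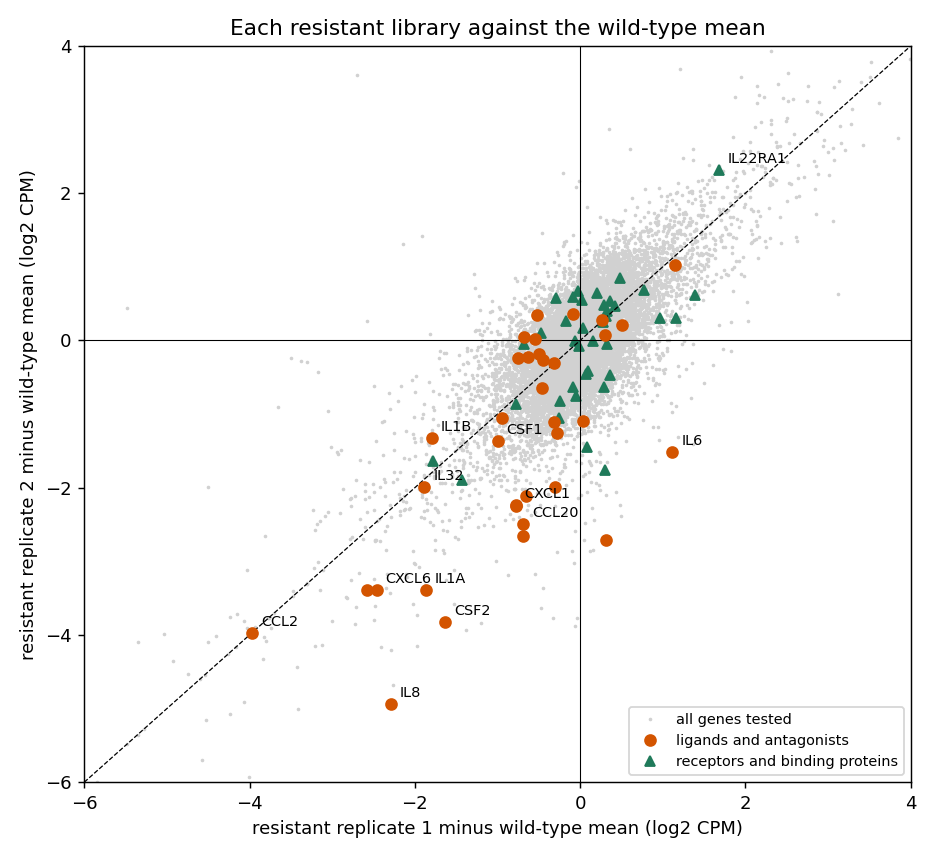
Log2 CPM of each tested gene minus the wild-type mean, in resistant replicate 1 (horizontal) and resistant replicate 2 (vertical); grey dots are all genes tested within the axes, orange circles ligands, green triangles receptors, and the dashed line marks equal values. Most ligands with a large difference lie below the dashed line, IL6 lies right of 0 and below 0, and IL32 and CSF1 lie near the line.

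Other genes of the same pathways were counted by list. Over all genes tested edgeR called 3.44% lower and 2.96% higher, and DESeq2 5.72% lower and 4.69% higher. An unadjusted p under 0.05 was found for 27% of all genes. Of 33 NF-kB signalling genes, all tested, 1 rose and 0 fell with edgeR, 7 had an unadjusted p under 0.05, and DESeq2 called 1 higher and 3 lower. The one that rose was IRAK1, a kinase of the IL-1 receptor complex, with 217 and 237 CPM in resistant cells, against 123 and 121 CPM in wild-type cells (log2 fold change 0.90 ± 0.14, adjusted p = 0.0229), and its call ended without either wild-type library (0.347 and 0.372). The feedback inhibitor TNFAIP3 and the ubiquitin ligase BIRC3, named after their values were seen, were called lower by DESeq2 but not by edgeR (log2 fold changes -1.29 and -1.28, edgeR adjusted p = 0.14 and 0.102). So was TAB2 (log2 fold change -0.69, edgeR adjusted p = 0.0788). In the whole list 21 genes had a negative log2 fold change and 12 a positive one. TNFAIP3 had 27.6 and 9.46 CPM against 48.4 and 43.2 CPM, and BIRC3 had 45.9 and 19.6 CPM against 75.8 and 83.5 CPM. The median log2 fold change of the list was -0.25.

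Of 26 JAK-STAT signalling genes 25 were tested and 0 passed with edgeR, where 6.4% of all genes did. An unadjusted p under 0.05 was found for 9, where 27% of all genes had one. DESeq2 called 3 lower and 0 higher, against 5.72% and 4.69% of all genes. STAT6, a transcription factor that acts in IL-4 signalling, had a log2 fold change of -0.24 ± 0.15 (adjusted p = 0.338), and the list's median was -0.24. Of 45 other cytokines and cytokine receptors outside the naming rule, 22 were tested, and 1 fell and 0 rose. In that list 6 had an unadjusted p under 0.05. DESeq2 called 2 lower (OSMR and RELT) and 2 higher (CX3CL1 and CD70), beside the same all-gene shares. With edgeR OSMR, CX3CL1 and CD70 did not pass (log2 fold changes -0.80, 0.62 and 0.75, adjusted p = 0.0613, 0.0527 and 0.0687). The one that fell was RELT, an orphan TNF receptor family member, with 13.6 and 14.9 CPM in resistant cells, against 26.2 and 26.2 CPM in wild-type cells (log2 fold change -0.88 ± 0.17, adjusted p = 0.0394), a call that ended without either wild-type library (0.392 and 0.388). The median of that list was -0.05.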

How the data were processed

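RNA was measured in 2 resistant and 2 wild-type libraries, grouped by their titles. The deposited tables give RSEM expected counts and TPM per gene symbol, 1 column per library; for tools, STAR, RSEM and DESeq2 1.40.2 are listed per the submitters' processing notes, and for builds both GRCh38 and hg19, none with a role. Of the deposited estimated counts 3.16% were fractional, and all were rounded. Genes with 10 or more counts in at least 2 libraries were kept (12892), TMM-scaled and tested with edgeR 4.0.16 (quasi-likelihood, R 4.3.3), with line as the only term and an adjusted p of 0.05. The SE given with a log2 fold change is its absolute value divided by the square root of edgeR's F statistic. The deposited TPM served for levels between genes and for limma 3.58.1 on log2(TPM + 1) and log2(TPM + 0.1). DESeq2 1.42.0 was an alternative. The fit was tested on simulated data. Members, lists and roles were chosen with earlier results of these data known. Named genes were all members past the threshold, the 2 most abundant tested members per role, and up to 2 rises and 2 falls per pathway list; others, IL8 and CSF2 among them, were named after their values were seen, and 1 pathway gene is not reported here. Promoter windows and gene order came from RefSeq (GRCh38.p14). CSF1, CCL2 and CSF3 have no promoter shown. The 28 symbols that look like dates were fitted but are not named. The replicate numbers share no stated source. The H3K27ac peak lists were not used here, since no gene annotation of their build was at hand. Depth limits genes with few counts; intervals and floors cover counting error only.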

Additional observations from a re-analysis of the deposited data

How the results depend on the processing

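The 8 lower calls of the set were unchanged with DESeq2 size factors, library totals, a filter of 1 or more counts, filterByExpr and limma-voom, and DESeq2 added IL8. On log2(TPM + 1) TNFRSF10D was lost (adjusted p = 0.0769), and on log2(TPM + 0.1) also IL1A (0.0698). CCL2 and CSF3 were not tested where 10 counts were asked of all 4 libraries. With library totals 1 member, IL22RA1, was called higher, and over all genes the split turned to 532 higher and 375 lower, against 382 and 443 with TMM. With limma-trend on log2(TPM + 1) without a filter 2 members were lower, and at a threshold of 0.01 only 1 was. Over all genes the calls were 605 higher and 738 lower with DESeq2, 243 and 282 with limma-trend on log2(TPM + 1), 217 and 243 on log2(TPM + 0.1), 41 and 98 without a filter, and 24 and 75 at 0.01. Leaving out 1 library gave 140 to 3520 higher and 189 to 3573 lower genes, and for the set 0 to 8 higher and 6 to 30 lower. The set's median log2 fold change of -0.27 became -0.42 on log2(TPM + 0.1) and -0.10 on log2(TPM + 1) without a filter. The cause of these shifts was not tested.

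No pairing by replicate number was seen: the differences within the resistant and the wild-type pair correlate at -0.0414 over genes. This cannot exclude a pairing, since the wild-type pair differed little (chi-square statistic per gene 1.95). With a replicate block 858 genes were higher and 1026 lower, and in the set 2 were higher and 18 lower. IL6 turned to -0.21 with limma-voom, -0.19 with the replicate block, -0.27 in all 3 limma-trend fits (-0.268, -0.271 and -0.268) and -1.50 without resistant replicate 1, against 1.12 without resistant replicate 2. TNFRSF1A turned to -0.02 in the limma-trend fits (-0.018 each). Without resistant replicate 2 it was -0.17, IL13RA1 0.10 and TNFSF14 0.04 (0.035). Without resistant replicate 1 the same genes stood at 0.28, -0.40 (-0.403) and -1.09. Precision is limited by 2 libraries per line, and members under 10 counts in 3 or more libraries were not tested.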

Other observations

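The CXC chemokine genes that were tested, other than CXCL16, lie near each other on chromosome 4 in RefSeq. The order there is CXCL8, CXCL6, PF4V1, CXCL1, PF4, PPBP, CXCL5, CXCL3 and CXCL2, followed by MTHFD2L, EPGN, EREG, AREG and BTC. The genes between and beside the members were looked up after the members' values were seen. The platelet chemokines PF4V1, PF4 and PPBP had too few counts to be tested: PF4V1 had 0 and 0 counts in the resistant libraries and 9 and 3 in the wild-type ones, PPBP 0 and 0 against 3 and 4, and PF4 12 and 8 against 3 and 3. EREG, the EGF receptor ligand epiregulin, had 160 and 120 CPM in resistant cells, against 298 and 310.4 CPM in wild-type cells, and fell (log2 fold change -1.12 ± 0.18, edgeR adjusted p = 0.0251), a call that ended without wild-type replicate 1 (0.086) and without wild-type replicate 2 (0.112). AREG, which encodes the related ligand amphiregulin, had 16.4 and 35.4 CPM, against 25.5 and 26.2 CPM, and its resistant values lay on either side of the wild type (adjusted p = 0.999). BTC and MTHFD2L had log2 fold changes of 0.02 and -0.34, and neither passed (adjusted p = 0.974 and 0.378).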
